A study of Homo sapiens with 10 samples.

Results

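The DNA replication and S phase genes measured here were 49 of the 57820 genes listed in each expression file of HCT116 cells. They were listed by gene symbol as known parts of the replication machinery and its nucleotide supply. The rule uses no measured value, but the list was drawn up with earlier results of these data known. All 49 passed the filter on low values in every comparison. The cells were HCT116, a human colorectal carcinoma line. All 10 libraries came from cells infected with lentivirus for a day and then selected with puromycin for 3 days. Of these libraries, 3 had a control hairpin (shNC1) and 3 a hairpin against TEX10 (TEX10_sh). In the second experiment 2 had a control hairpin (shNC2) and 2 a hairpin against RELA (p65_sh). The 2 experiments ask what knockdown of TEX10, or of RELA, the p65 subunit of NF-κB, does to the transcriptome. Which of the hairpins was sequenced is not given in the sources used here, and no source states whether libraries of a group are separate cultures: a p-value here covers only how these libraries vary, which may be technical.

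Before a cell enters S phase, the origin recognition complex with CDC6 and CDT1 loads the MCM2-7 helicase onto DNA, and CDC45 and the GINS complex then switch the helicase on. Polymerase alpha-primase starts each new strand, polymerases delta and epsilon extend it on the PCNA clamp that replication factor C loads, FEN1 and LIG1 join the Okazaki fragments, and ribonucleotide reductase, TYMS and TK1 supply the nucleotides. Many of these genes are transcribed in a wave as cells pass into S phase, under the E2F factors that the RB family holds in check, so their mRNA is commonly read as a sign of cycling cells.

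The promoters of 6 of these genes are shown because their mRNAs carry the main differences: RRM1, RRM2, TYMS and TK1, the nucleotide supply genes, which passed the test after both knockdowns, PCNA, which did so in the opposite direction to most of them, and GINS2, which had the largest change. Each is the 250 bases before a transcription start listed by RefSeq on GRCh38.p14, read 5′ to 3′ on the gene's own strand, with matches to an E2F motif or to a CCAAT box, on either strand, in capitals. Where RefSeq lists 2 starts, the one near which more GENCODE v29 transcripts begin is shown, or the more downstream one where these are equal. The expression files themselves were made on hg19, and no value in them is tied to these coordinates.
RRM1, chr11:4094435-4094684, plus strand: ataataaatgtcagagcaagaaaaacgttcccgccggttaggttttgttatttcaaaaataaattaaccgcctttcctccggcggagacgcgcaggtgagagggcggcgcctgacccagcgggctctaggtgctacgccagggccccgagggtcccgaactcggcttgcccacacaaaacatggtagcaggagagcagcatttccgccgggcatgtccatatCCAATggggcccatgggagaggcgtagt
RRM2, chr2:10122489-10122738, plus strand: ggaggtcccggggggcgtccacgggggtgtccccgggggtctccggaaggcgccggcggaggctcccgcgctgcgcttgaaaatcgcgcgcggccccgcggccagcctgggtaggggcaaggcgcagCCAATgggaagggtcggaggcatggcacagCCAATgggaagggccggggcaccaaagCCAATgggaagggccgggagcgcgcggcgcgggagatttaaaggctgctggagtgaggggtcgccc
TYMS, chr18:657403-657652, plus strand: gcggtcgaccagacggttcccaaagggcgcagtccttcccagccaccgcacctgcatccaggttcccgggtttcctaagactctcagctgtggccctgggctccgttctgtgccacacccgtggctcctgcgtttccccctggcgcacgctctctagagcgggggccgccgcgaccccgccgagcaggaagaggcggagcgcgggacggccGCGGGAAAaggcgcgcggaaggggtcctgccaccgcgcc
TK1, chr17:78187053-78187302, minus strand: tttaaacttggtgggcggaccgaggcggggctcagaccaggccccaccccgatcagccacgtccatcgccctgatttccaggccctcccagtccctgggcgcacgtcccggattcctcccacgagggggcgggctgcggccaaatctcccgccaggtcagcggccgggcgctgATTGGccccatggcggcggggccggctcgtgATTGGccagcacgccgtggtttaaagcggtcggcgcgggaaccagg
PCNA, chr20:5126623-5126872, minus strand: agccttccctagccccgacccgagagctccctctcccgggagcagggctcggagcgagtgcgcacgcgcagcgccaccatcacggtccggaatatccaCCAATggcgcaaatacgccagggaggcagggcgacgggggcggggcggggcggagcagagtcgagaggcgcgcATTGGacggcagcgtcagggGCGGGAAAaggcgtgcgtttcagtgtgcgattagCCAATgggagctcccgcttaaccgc
GINS2, chr16:85688955-85689204, minus strand: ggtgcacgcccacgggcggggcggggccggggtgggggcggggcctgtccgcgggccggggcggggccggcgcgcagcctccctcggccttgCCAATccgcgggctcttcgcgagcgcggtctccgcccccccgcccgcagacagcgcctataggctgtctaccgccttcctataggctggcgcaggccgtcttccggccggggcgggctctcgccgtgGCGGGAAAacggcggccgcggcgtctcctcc

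An E2F motif (TTTCCCGC, TTTCGCGC, TTTGCCGC or TTTGGCGC, on either strand) stood in these windows in TYMS, 39 bases before the start, in PCNA, 59 bases before it, and in GINS2, 31 bases before it. TK1 held a pair of CCAAT boxes, 77 and 46 bases before its start, RRM2 held 3, and PCNA held 3. The table held windows for 43 of the 49 genes, 56 windows in all. An E2F motif was found in 16 of these windows, 28.6%, against 2.79% of the 35116 windows of all genes, and a CCAAT box in 33, 58.9%, against 32.0%. A κB motif by its usual consensus was found in 9 windows, 16.1%, against 9.96% of all windows. Among the windows of the genes that fell after TEX10 knockdown the E2F share was 22.7%, among those that fell after RELA knockdown 18.2%, and among those called after neither knockdown 33.3%. Among the genes that rose it was 20% of 5 windows after TEX10 knockdown and 37.5% of 8 after RELA knockdown. The κB motif was in 18.2% of the windows of genes that fell after TEX10 knockdown, 20% of those that rose, 9.09% of those of genes that fell after RELA knockdown and 4.76% of those called after neither. For the 4 genes that rose after RELA knockdown it was in 5 of 8 windows, 62.5%, which belong to PCNA, RRM2 and UHRF1, and windows of 1 gene can overlap. The RRM2 window shown holds 3 such matches and the PCNA window shown 1. These are matches of letters and not measured binding sites.

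The 10 libraries held 28606464 to 44658105 reads, and 3 reads, the floor used here, correspond to 0.0678 to 0.105 CPM (reads per 1e6 reads). TEX10 mRNA fell from 72.6 CPM in shNC1 (69.8 to 74.9) to 31.9 in TEX10_sh (31.2 to 32.2), and RELA mRNA fell from 97.2 CPM in shNC2 (92 to 102) to 30.7 in p65_sh (29.8 to 31.5). RELA mRNA also fell after TEX10 knockdown, from 79.8 to 68 CPM (log2 fold change -0.23, limma adjusted p = 2.49e-05). TEX10 mRNA went from 68.7 to 76.1 CPM after RELA knockdown and did not pass the test (0.15, limma adjusted p = 0.0224). Of the 7 epithelial markers, EPCAM, KRT8, KRT18, KRT19 and CDH1 had means above 90 CPM in all 4 groups, CDX2 was at 11.8 to 17.4 CPM and VIL1 at 0.245 to 1.87 CPM. CD3E was listed at 0 in every library, PTPRC and COL1A2 did not exceed a mean of 0.0481 CPM, and COL1A1 and CD68 were detected at 40.5 to 48.5 and 3.05 to 13.9 CPM.

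The shNC1 libraries stood apart from each other in the replication genes. The second shNC1 library was the highest of the 3 for 47 of 49 genes, and the third was the lowest for 48 of 49, whereas over all genes tested these shares were 40% and 45.4%. Scaling by library totals left the counts at 46 and 47. Summed over the 49 genes, the shNC1 libraries held 4852, 5181 and 4469 CPM, the TEX10_sh libraries 4588, 4516 and 4622, the shNC2 libraries 5596 and 5527, and the p65_sh libraries 5389 and 5540. The sums of TEX10_sh thus lay inside the range of their own controls, and those of p65_sh overlapped theirs. The 20 mitosis genes had the same order among the shNC1 libraries, with sums of 2103, 2220 and 2004 CPM, while their TEX10_sh sums, 1609, 1549 and 1592 CPM, lay below all of these. In bulk libraries, fewer cells in S phase and less of an mRNA per cell cannot be told apart.

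**Figure D1:**
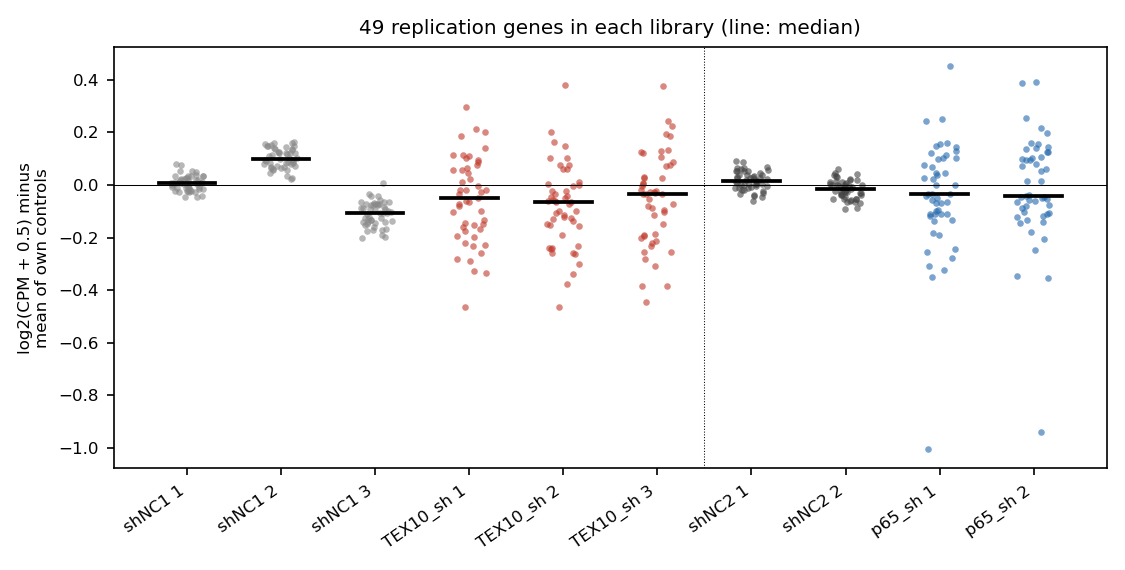
Each point is 1 of the 49 replication genes in 1 library, as log2(CPM + 0.5) minus the mean of the control libraries of the same experiment, with the median as a line and the 2 experiments divided by the dotted line. For nearly every gene the second shNC1 library is the highest of the 3 and the third the lowest, with medians of 0.1 and -0.104. The genes spread more widely in both knockdowns than in any control library.

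TEX10 knockdown lowered a minority of the replication genes by small amounts. Of 49 genes, 15 fell, 3 rose and 31 did not pass the test (limma, Benjamini-Hochberg adjusted p under 0.01 over all genes tested). The background in this comparison was 19% of 17257 genes called lower and 21.6% called higher, so 30.6% of the replication genes were lower and 6.12% higher. The median log2 fold change of the 49 genes was -0.05, against 0.0023 over all genes, and no gene changed by 1.5-fold or more. The counts moved with the control libraries: without the second shNC1 library 11 genes were lower and 8 higher, with a median of 0.01, and without the third 23 were lower and 2 higher, with a median of -0.11. Leaving out the second TEX10_sh library gave 10 lower and 2 higher. Over all genes, in the same order, these fits called 17%, 18.4% and 15.5% lower and 21.1%, 19.6% and 17.6% higher. With no filter on low values, where more genes were tested, 9 were lower and 2 higher, against 8.66% and 10.3% of all genes. Without that filter ORC4, MCM8, PRIM1, POLD1, RFC5, RRM2 and TYMS lost their calls (limma adjusted p of 0.0105 to 0.0362).

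After RELA knockdown GINS2 changed by more than any other replication gene. Of 49 genes, 9 fell, 4 rose and 36 did not pass the test. Among those 36, groups without overlap occurred too, as for MCM3 and MCM6. With 2 libraries a group, a lack of overlap alone therefore says little. The background was 15.8% of 16814 genes called lower and 14.4% called higher, and the shares of replication genes were 18.4% and 8.16%, so the share called lower was near that of all genes. Their median was -0.05, against 0.0056 over all genes. Without the first shNC2 library, which leaves 1 in that group, the median was -0.008, and without the second -0.058. With no filter 6 were lower and 3 higher, against 5.98% and 4.83% of all genes, and POLD1, PCNA, TYMS and TK1 lost their calls (limma adjusted p of 0.0231 to 0.032).

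**Figure D2:**
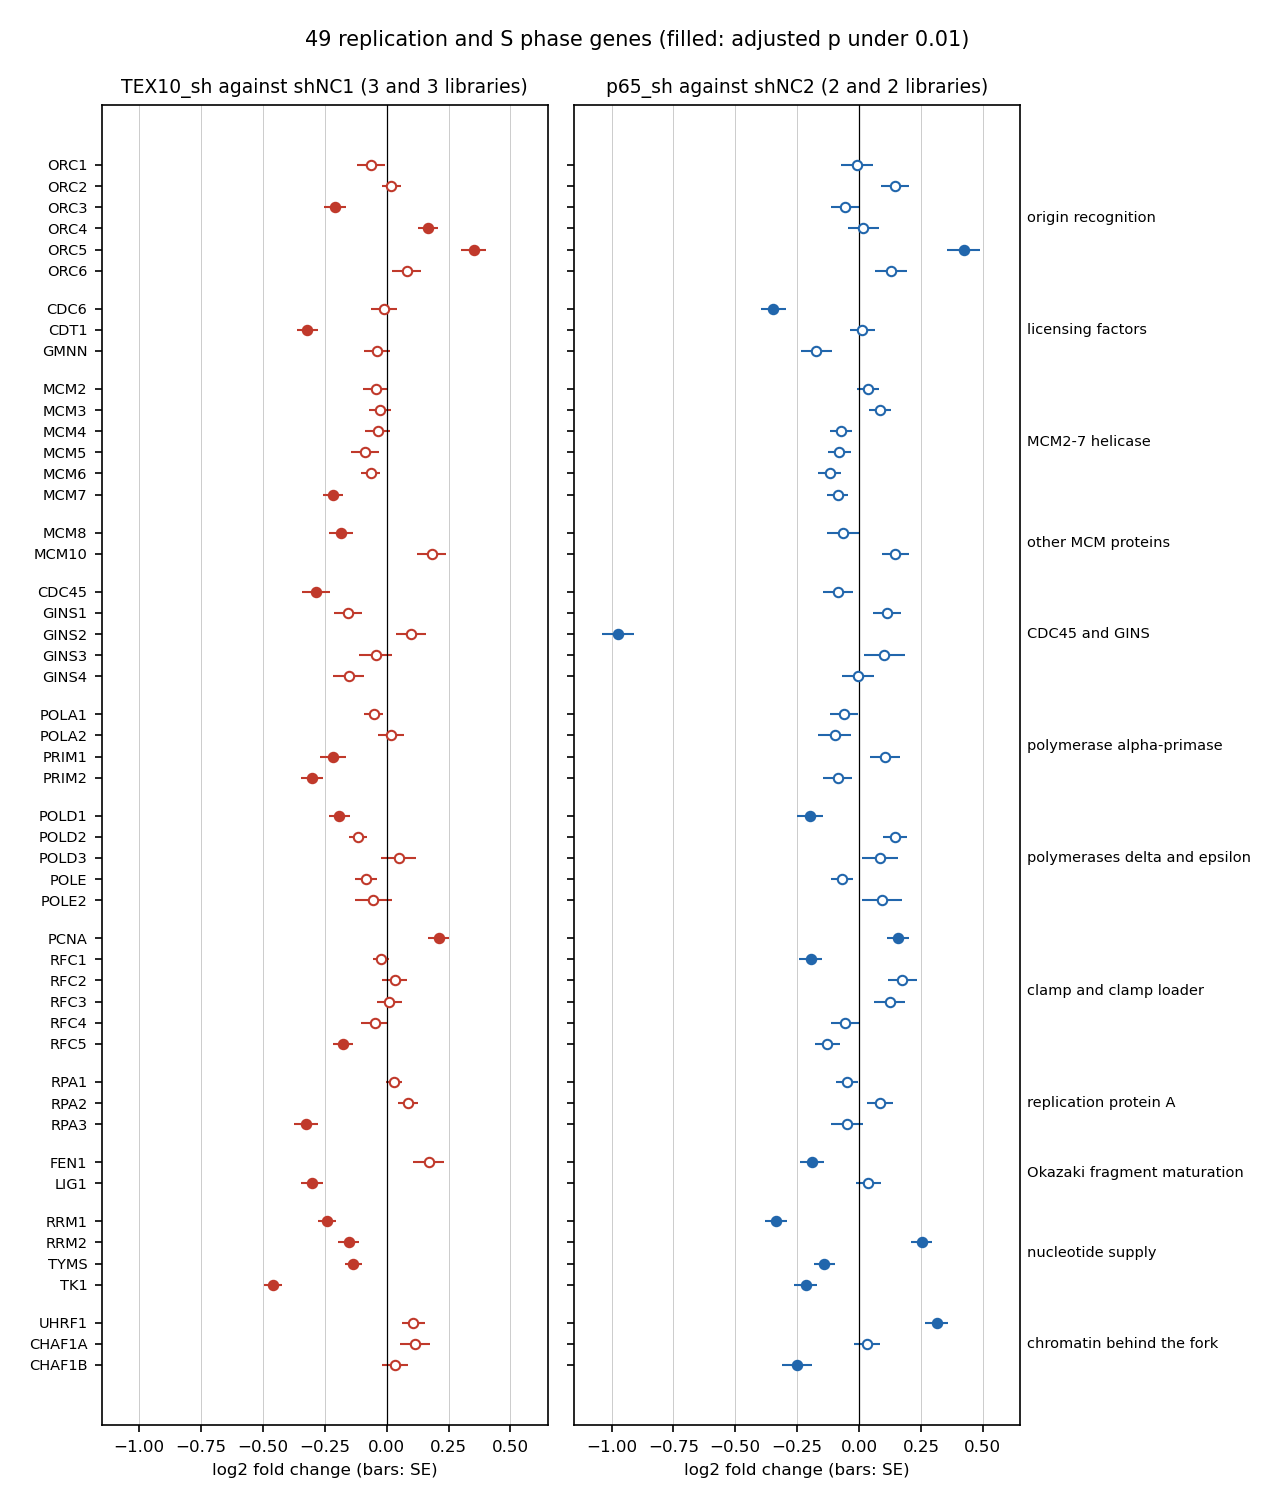
Log2 fold changes of the 49 genes with their standard errors, by role, after TEX10 knockdown (left) and RELA knockdown (right), with filled points for an adjusted p under 0.01. All 4 nucleotide supply genes are filled on both sides, and GINS2 at -0.97 after RELA knockdown lies outside the range of every other point.

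Among the subunits of the origin recognition complex, ORC5 rose after both knockdowns. It was at 27.2, 26.2 and 24.0 CPM in shNC1 and 31.8, 33.7 and 33.6 in TEX10_sh, and at 27.7 and 25.3 CPM in shNC2 and 36.4 and 34.9 in p65_sh. Both knockdown groups lay wholly above their controls, by 0.35 on the log2 scale (SE 0.05, limma adjusted p = 2.32e-05) and 0.42 (SE 0.07, limma adjusted p = 8.1e-07). Both calls held under every other method, scaling, filter and left-out library tried. ORC3 fell after TEX10 knockdown (log2 fold change -0.21, limma adjusted p = 0.000683) and ORC4 rose (0.17, limma adjusted p = 0.00344), while after RELA knockdown their values were -0.06 and 0.02 and did not pass the test. The ORC4 call was lost with no filter on low values and when the first or the third shNC1 or the second or the third TEX10_sh library was left out, with changes of 0.13 to 0.17 and limma adjusted p of 0.0115 to 0.0203. ORC1, the subunit whose level is known to follow the cell cycle, had -0.06 and -0.01 in the 2 comparisons, and ORC2 and ORC6 had 0.02 and 0.08 after TEX10 knockdown and 0.14 and 0.13 after RELA knockdown, none of which passed.

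The loading factors CDC6 and CDT1 split between the knockdowns. CDT1 was at 100, 106 and 93.4 CPM in shNC1 and 82.0, 76.7 and 80.5 in TEX10_sh, with no overlap, a fall of 19.9% (log2 fold change -0.32, SE 0.04, limma adjusted p = 7.19e-06). In the RELA experiment CDT1 was at 102 and 111 CPM in shNC2 and 104 and 111 in p65_sh, which overlap. CDC6 showed the reverse order. It was at 116 and 106 CPM in shNC2 against 87.0 and 86.6 in p65_sh, lower by 21.4% (log2 fold change -0.35, SE 0.05, limma adjusted p = 9.77e-08), and at 92.2, 101 and 81.1 CPM in shNC1 against 89.5, 90.9 and 90.8 in TEX10_sh, which lay inside the range of the controls. In the test of the difference between the knockdown effects, CDT1 had -0.33 (limma adjusted p = 0.00112) and CDC6 0.34 (limma adjusted p = 0.00493). Without the first shNC2 or second p65_sh library neither difference passed, with CDT1 at -0.28 in both and CDC6 at 0.27 and 0.33. GMNN, which encodes geminin, the inhibitor of CDT1, did not pass in either comparison (-0.04 and -0.17).

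Of the 6 subunits of the MCM2-7 helicase, only MCM7 passed a test. It had the highest CPM per kilobase of the 6, and fell from 405 ± 29.9 CPM (SD, n = 3) in shNC1 to 347 ± 6.63 (SD, n = 3) in TEX10_sh (log2 fold change -0.22, SE 0.04, limma adjusted p = 0.000241). MCM2 to MCM6 lay between -0.09 and -0.03 after TEX10 knockdown, and the 6 genes lay between -0.12 and 0.09 after RELA knockdown. Among the other MCM proteins, MCM8, which acts in recombination rather than in the replicative helicase, fell after TEX10 knockdown (-0.19, limma adjusted p = 0.0045), and MCM10, which helps start unwinding, did not pass in either (0.18 and 0.15). The MCM8 call was lost without the first or second shNC1 or the first or the third TEX10_sh library, with -0.19 to -0.14 and limma adjusted p of 0.0138 to 0.0292.

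GINS2, 1 of the 4 subunits of the GINS complex, had the largest change of all 49 genes. It was at 56.0 and 49.6 CPM in shNC2 and at 26 and 27.2 in p65_sh. The groups were far apart, a fall of 49.1% (log2 fold change -0.97, SE 0.07, limma adjusted p = 2.4e-19), and leaving out any library or changing the method kept the call, with the change as large as -1.06. The other subunits did not pass after RELA knockdown: GINS1 had 0.11, GINS3 0.10 and GINS4 -0.01. After TEX10 knockdown GINS2 was at 42.0, 40.8 and 42.9 CPM against 39.4, 43.7 and 34.6 in shNC1, which overlap. The GENCODE v29 exons of GINS2 share 7 bases with those of GSE1 on the other strand. CDC45, which joins GINS on the helicase, fell after TEX10 knockdown from 37.8, 40.3 and 33.7 CPM to 30.3, 29.3 and 31.6 (log2 fold change -0.28, SE 0.06, limma adjusted p = 0.000446) and had -0.09 after RELA knockdown.

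The primase subunits fell after TEX10 knockdown and the polymerase alpha subunits did not pass. PRIM2, the large primase subunit, was at 35.6, 38.0 and 35.2 CPM in shNC1 and 28.8, 29.3 and 29.7 in TEX10_sh, groups with no overlap (log2 fold change -0.30, SE 0.04, limma adjusted p = 2.22e-05). PRIM1, the catalytic subunit, had -0.22 (limma adjusted p = 0.00253), a call lost without the second shNC1 library (-0.15, limma adjusted p = 0.0148) or the second or the third TEX10_sh library (-0.195 and -0.214). POLA1 and POLA2 had -0.05 and 0.02. After RELA knockdown none of these 4 passed, with values from -0.10 to 0.10. POLD1, the catalytic subunit of polymerase delta, fell after both knockdowns by nearly the same amount: from 82.2, 89.6 and 80.0 CPM to 71.9, 70.9 and 77.5 after TEX10 knockdown (-0.19, limma adjusted p = 0.00153), and from 91.9 and 94.2 CPM to 76.7 and 85.6 after RELA knockdown (-0.20, limma adjusted p = 0.00185). The groups did not overlap in either experiment, which after RELA knockdown also held for genes that were not called. The POLD1 calls were lost without the first or second TEX10_sh library (limma adjusted p of 0.0106 and 0.0142) and without the first p65_sh library (-0.12, limma adjusted p = 0.114) or either shNC2 library (limma adjusted p of 0.0132 and 0.0454), and DESeq2 gave an adjusted p of 0.0117 in the RELA experiment. POLD2, POLD3, POLE and POLE2 passed in neither comparison, with POLD2 at -0.12 and 0.14.

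PCNA, the sliding clamp and the gene with the highest level per kilobase of GENCODE v29 exon in all 4 groups among the 48 with a length, from 144 CPM per kb in shNC1 to 194 in p65_sh, rose after both knockdowns. It was at 213, 230 and 195 CPM in shNC1 and 244, 244 and 248 in TEX10_sh, higher by 15.7% (log2 fold change 0.21, SE 0.04, limma adjusted p = 0.00056). In the RELA experiment it was at 261 and 251 CPM in shNC2 and 286 and 285 in p65_sh, higher by 11.6% (0.16, SE 0.04, limma adjusted p = 0.00259). No knockdown library overlapped its controls, which in the RELA experiment was also so for genes that were not called. The call after RELA knockdown was lost with no filter on low values (limma adjusted p = 0.0231) and without the first (0.185, limma adjusted p = 0.0143) or second (0.13, limma adjusted p = 0.0984) shNC2 library or the first p65_sh library (limma adjusted p = 0.0112), while that after TEX10 knockdown held under every alternative tried. The clamp loader subunits were mixed. RFC5 fell after TEX10 knockdown (-0.18, limma adjusted p = 0.00182), and RFC1, the large subunit, fell after RELA knockdown (-0.20, limma adjusted p = 0.000632). RFC2, RFC3 and RFC4 passed in neither. After RELA knockdown RFC2 had 0.175 (limma adjusted p = 0.0107), close to the threshold and to the change of PCNA, RFC3 had 0.123 and RFC4 -0.056. RFC5 lost its call without the second or the third TEX10_sh library (limma adjusted p = 0.0111 in both) and RFC1 without the first shNC2 library (-0.18, limma adjusted p = 0.0319).

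RPA3, the small subunit of the single-strand binding complex, was at 31.9, 33.7 and 30.6 CPM in shNC1 and 25.3, 26.7 and 24.4 in TEX10_sh, a fall of 20.2% (log2 fold change -0.33, SE 0.05, limma adjusted p = 4.03e-05). RPA1 and RPA2 had 0.03 and 0.08 and did not pass, nor did any of the 3 after RELA knockdown. Whether the counting used strand is not given in the sources used here, and UMAD1 (11.2 to 13.3 CPM), whose exons share 70 bases with RPA3 on the other strand, therefore cannot be told apart from it there. The enzymes that finish Okazaki fragments went separate ways. LIG1 was at 85.3, 91.6 and 82.0 CPM in shNC1 and 72.0, 71.8 and 65.9 in TEX10_sh (log2 fold change -0.30, SE 0.04, limma adjusted p = 2.16e-05), and overlapped its controls in the RELA experiment. FEN1 fell after RELA knockdown from 129 ± 0.309 CPM (SD, n = 2) to 113 ± 0.768 (SD, n = 2) (-0.19, SE 0.05, limma adjusted p = 0.000885), and in TEX10_sh its 0.17 did not pass. Without either shNC2 library the FEN1 change was still -0.19, with limma adjusted p of 0.0239 and 0.0201.

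The nucleotide supply genes were the 1 role in which every gene passed after both knockdowns. TK1, the salvage kinase for thymidine, had the largest fall of any replication gene after TEX10 knockdown. It was at 221, 226 and 204 CPM in shNC1 and 157, 157 and 159 in TEX10_sh, lower by 27.2% (log2 fold change -0.46, SE 0.04, limma adjusted p = 1.57e-08). In the RELA experiment TK1 was at 286 and 299 CPM in shNC2 and 236 and 269 in p65_sh, lower by 13.8% (-0.21, SE 0.05, limma adjusted p = 0.000163), with p65_sh libraries that differed from each other more than the shNC2 libraries did. That second TK1 call was lost under DESeq2 (adjusted p = 0.0568), with no filter on low values (limma adjusted p = 0.0282) and without the second shNC2 (-0.18, limma adjusted p = 0.0157) or the first p65_sh library (-0.12, limma adjusted p = 0.0537).

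RRM1, the large subunit of ribonucleotide reductase, fell in both experiments. Its values were 152, 163 and 147 CPM in shNC1 against 131, 131 and 129 in TEX10_sh (-0.24, SE 0.04, limma adjusted p = 2.75e-05), and 184 and 177 CPM in shNC2 against 144 and 142 in p65_sh (-0.34, SE 0.05, limma adjusted p = 1.92e-08). Both calls held under all of the alternatives tried. RRM2, the small subunit of the same enzyme, moved in opposite directions. It was at 235, 261 and 224 CPM in shNC1 and 213, 216 and 216 in TEX10_sh, lower by 10.1% (-0.15, SE 0.04, limma adjusted p = 0.00486), a call lost without the second shNC1 library (-0.09, limma adjusted p = 0.0184) or any 1 TEX10_sh library (-0.16 to -0.15, limma adjusted p of 0.0175 to 0.0235). In p65_sh it was at 384 and 385 CPM against 331 and 314 in shNC2, higher by 19.2% (0.25, SE 0.04, limma adjusted p = 2.5e-06), a call that held under all alternatives tried. TYMS, thymidylate synthase, was the smallest of these changes, from 198, 210 and 189 CPM to 179, 179 and 185 after TEX10 knockdown (-0.14, limma adjusted p = 0.00391) and from 221 and 220 to 201 and 200 after RELA knockdown (-0.14, limma adjusted p = 0.00857). The first TYMS call was lost without the first or second library of either group (-0.14 to -0.10, limma adjusted p of 0.0147 to 0.0237), the second without any 1 of its 4 libraries (limma adjusted p of 0.0248 to 0.0922) and also with library totals (limma adjusted p = 0.0114), and both with no filter on low values (limma adjusted p of 0.0228 and 0.032), and 58.2% of the GENCODE v29 exon bases of TYMS are shared with ENOSF1 on the other strand, which was at 52.2 to 62.6 CPM.

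**Figure D3:**
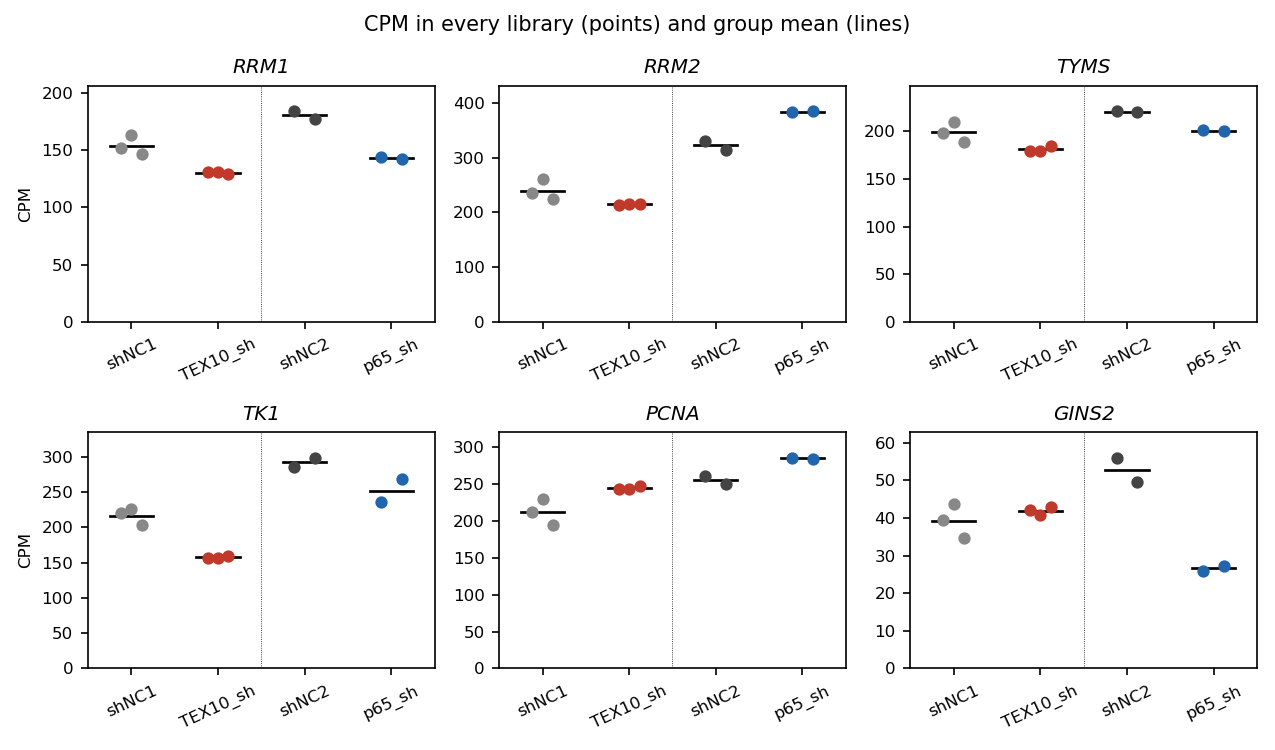
CPM of 6 genes in each library (points) with the group mean (line), the 2 experiments divided by the dotted line and each axis starting at 0. TK1 and RRM1 lie below their controls in both experiments, PCNA lies above them in both, RRM2 lies below in TEX10_sh and above in p65_sh, and GINS2 is apart from its controls in p65_sh and overlaps them in TEX10_sh.

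Of the genes that act on chromatin behind the fork, UHRF1, which brings DNA methylation to the new strand, rose after RELA knockdown. It was at 136 and 136 CPM in shNC2 and 161 and 178 in p65_sh (log2 fold change 0.31, SE 0.05, limma adjusted p = 2.76e-07), and in TEX10_sh its value was 0.11 and did not pass. CHAF1B, a subunit of the histone chaperone CAF-1, fell after RELA knockdown from 54.4 and 49.9 CPM to 43.6 and 43.8 (-0.25, SE 0.06, limma adjusted p = 0.000446) and overlapped its controls in TEX10_sh. Without the first shNC2 library CHAF1B did not pass (-0.19, limma adjusted p = 0.0622). CHAF1A, its partner, passed in neither comparison (0.11 and 0.03).

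Set side by side, 4 genes fell after both knockdowns (POLD1, RRM1, TYMS and TK1), 2 rose after both (ORC5 and PCNA), RRM2 fell after 1 and rose after the other, and 25 were called after neither. These are 8.16%, 4.08%, 2.04% and 51% of the 49, against 8.15%, 7.63%, 0.99% and 45.9% of the 16573 genes tested in both comparisons, so the share that fell after both was near that of all genes. None rose after TEX10 and fell after RELA knockdown, against 1.76% of all genes. The difference between the knockdown effects was tested in a fit of all 10 libraries. TEX10 knockdown had the lower effect for 6 of 49 genes (CDT1, PRIM1, POLD2, LIG1, RRM2 and TK1) and the higher for 3 (CDC6, GINS2 and FEN1), 12.2% and 6.12%, against 8.49% and 11.5% of 17922 genes. The largest was GINS2 (difference of log2 fold changes 1.07, SE 0.10, limma adjusted p = 7.8e-08), followed by RRM2 (-0.41, SE 0.06, limma adjusted p = 5.68e-05), and those were the 2 that held under every alternative tried. Without the third shNC1 library 12 genes had the lower effect and 3 the higher, against 8.58% and 10.7% of all genes. Leaving out 1 library of the RELA experiment leaves 1 in a group. Without the second p65_sh library TK1 had -0.15, POLD2 -0.19 and LIG1 -0.28. Across the 49 genes the log2 fold changes of the 2 comparisons, which share no library, had a Pearson r of 0.21 and a Spearman rho of 0.31, and across 16573 genes 0.42 and 0.41. Genes of 1 library are not independent replicates, and these values are a description.

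**Figure D4:**
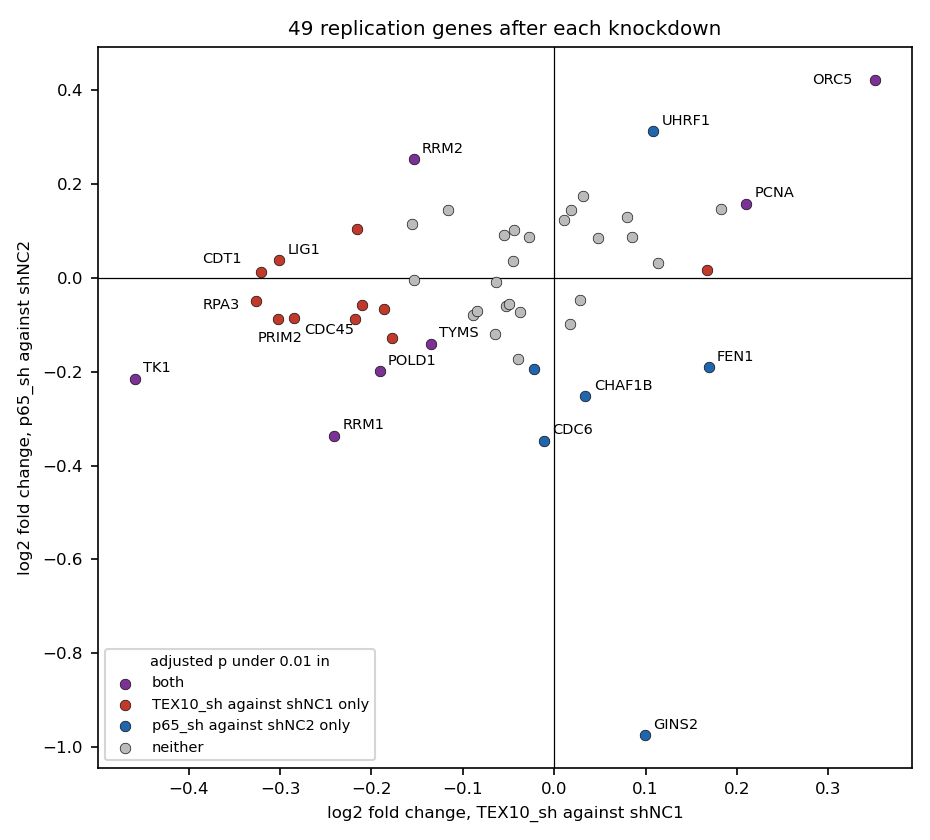
Log2 fold change of each of the 49 genes after TEX10 knockdown (horizontal) and RELA knockdown (vertical), coloured by where the adjusted p was under 0.01. ORC5 and PCNA lie upper right, TK1, RRM1, POLD1 and TYMS lower left, RRM2 upper left and GINS2 at the bottom.

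The 2 control groups differed from each other in the same genes. For 33 of 49 genes both shNC2 libraries were above all 3 shNC1 libraries, and for none were both below, while over 16573 genes 25.3% were above and 31.1% below. The median log2 ratio of shNC2 over shNC1 was 0.23 for the replication genes and -0.0204 for all genes. PRIM2 (0.45), TK1 (0.43), GINS2 (0.43), RRM2 (0.43) and GMNN (0.41) were the highest, and ORC2 (-0.04) was the only gene below 0. Scaled by library totals, 35 genes were above, with a median of 0.21. All 20 mitosis genes were above too, with a median of 0.63. The experiments were scaled separately, and control group and experiment cannot be told apart, so no test was made.

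**Figure D5:**
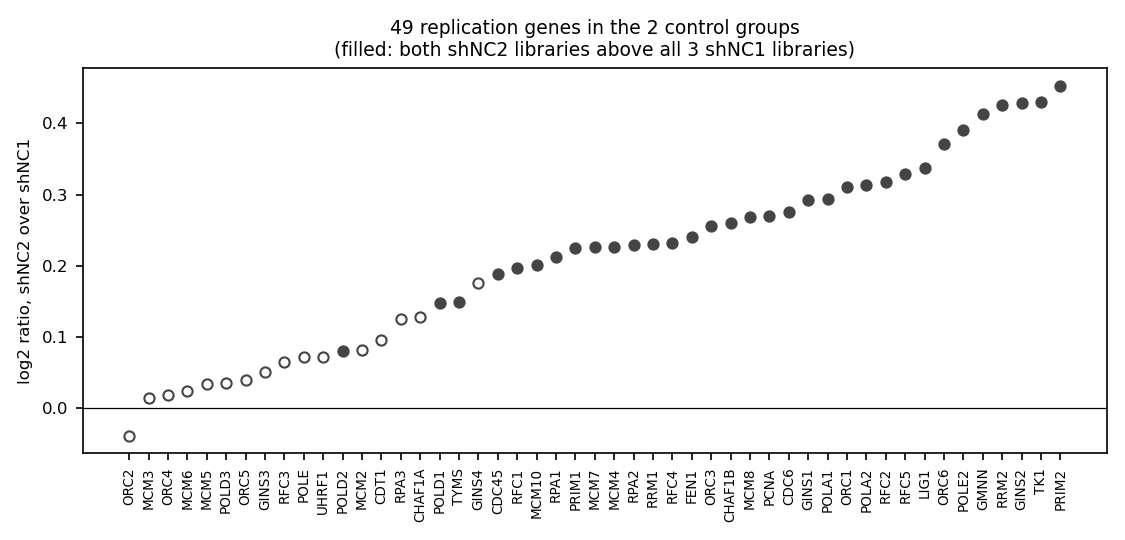
Log2 ratio of the mean CPM in shNC2 over that in shNC1 for the 49 genes in rising order, filled where both shNC2 libraries lie above all 3 shNC1 libraries. All but ORC2 are above 0, the MCM2, MCM3, MCM5 and MCM6 helicase genes lie near 0, and PRIM2, TK1, GINS2 and RRM2 are the highest.

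Other genes of the pathway were taken from a list of 38 replication factors, nucleotide enzymes and chromatin proteins. After TEX10 knockdown 12 fell and 6 rose, 31.6% and 15.8%, against 19% and 21.6% of all genes, with a median of -0.11. RRM2B, the p53-inducible form of the small reductase subunit, rose from 99.5 to 168 CPM (log2 fold change 0.75, limma adjusted p = 2.72e-11), SAMHD1, which degrades deoxynucleotides, rose from 35.3 to 49.2 CPM (0.47, limma adjusted p = 4.97e-08), the histone chaperone ASF1A rose (0.38, limma adjusted p = 1.63e-06), and DCK, the deoxycytidine kinase, fell from 39.8 to 31.2 CPM (-0.34, limma adjusted p = 5.69e-06). After RELA knockdown 9 fell and 5 rose, 23.7% and 13.2%, against 15.8% and 14.4% of all genes, with a median of -0.07: SAMHD1 rose again (0.52, limma adjusted p = 1.67e-10), and TIMELESS (-0.25, limma adjusted p = 3.57e-05), a fork protection protein, fell. TIMELESS had also fallen after TEX10 knockdown (-0.21, limma adjusted p = 0.000118). RRM2B (0.20, limma adjusted p = 0.000491) and ASF1A (0.26, limma adjusted p = 0.0023) also rose again after RELA knockdown. With 1 library left out, which leaves 1 in a group, RRM2B ranged from 0.165 to 0.243 and ASF1A from 0.211 to 0.307. The RRM2B value was lowest without the second shNC2 library and that of ASF1A without the first p65_sh library. ASF1A lost its call with no filter on low values and under DESeq2. With DESeq2 4 of the 38 fell, against 10.6% of all genes, and with no filter on low values 3 fell, against 5.98%.

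In the E2F and RB family, 13 genes were tested. E2F1 itself passed in neither comparison, going from 34.0 to 30.1 CPM with TEX10 knockdown and from 29.5 to 33.8 CPM with RELA knockdown, while the difference between these effects passed (-0.36, limma adjusted p = 0.0051). That call was lost with no filter on low values (limma adjusted p = 0.0387) and without the first or second shNC1, the second or the third TEX10_sh, either shNC2 or the second p65_sh library (-0.39 to -0.31, limma adjusted p of 0.0112 to 0.038). After TEX10 knockdown RBL2, a pocket protein that represses cell cycle genes in resting cells, fell from 70.5 to 52.5 CPM (-0.42, limma adjusted p = 8e-07) and 4 genes rose, among them RB1 (0.26, limma adjusted p = 5.05e-06), TFDP2 (0.25, limma adjusted p = 9.97e-06) and E2F4 (0.22, limma adjusted p = 3.41e-05). After RELA knockdown E2F7 fell and 4 genes rose, with E2F3 going from 49.6 to 73.5 CPM (0.56, limma adjusted p = 7.36e-13). E2F3 and E2F4 rose after both. In each comparison 7.69% of the 13 genes were called lower and 30.8% higher. Over all genes these shares were 19% and 21.6% after TEX10 knockdown, and 15.8% and 14.4% after RELA knockdown. In the RELA experiment, leaving out 1 library leaves 1 in a group. E2F4 lost its call there without the first shNC2 library (0.20, limma adjusted p = 0.0153), and E2F7 with no filter on low values (limma adjusted p = 0.0123), without either shNC2 or the second p65_sh library (-0.23 to -0.20, limma adjusted p of 0.0265 to 0.0389) and under DESeq2 (adjusted p = 0.0317).

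The mitosis genes are the usual marks of cells in division, and they were counted beside the replication genes. All 20 fell after TEX10 knockdown, with a median log2 fold change of -0.39, led by CENPF, a kinetochore protein, at 336 CPM in shNC1 and 208 in TEX10_sh (-0.69, limma adjusted p = 2.36e-11), and the kinesins KIF20A (-0.59, limma adjusted p = 2.19e-09) and CENPE (-0.57, limma adjusted p = 2.26e-08). After RELA knockdown 14 of 20 fell and none rose, with a median of -0.25, and CENPF went from 484 to 382 CPM (-0.34, limma adjusted p = 1.29e-09). Over all genes 19% were called lower after TEX10 knockdown and 15.8% after RELA knockdown. The part of the mitosis genes in the changes of the replication genes was not tested.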

How the data were processed

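HCT116 RNAseq was measured in 10 libraries of 4 groups. The authors deposited, for each library, 1 table of CPM (read counts scaled to 1e6 reads) for 57820 genes. The submitters' processing notes name STAR 2.4.2a, RSEM 1.2.29, edgeR 3.8.5 and hg19. Deposited CPM summed to between 978808 and 1010950, with scaling factors set within each experiment, so levels across experiments are set side by side only. Low values were whole multiples of 1 read in each library, and 100% of values above 0 came out whole within 0.01, which gave the reads. Intervals and floors cover counting error only.

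Genes that passed filterByExpr (edgeR 4.0.16, minimum count 10, minimum total 15) were tested with limma 3.58.1 (R 4.3.3, trended variance) on log2(CPM + 0.5), a scale on which changes of low genes look smaller. Benjamini-Hochberg adjustment ran over all genes tested, and genes with an adjusted p under 0.01 were called, after the FDR of the study. Each knockdown was fitted with its own controls, and the difference in all 10 libraries. The count tests edgeR and DESeq2 1.42.0 on the recovered reads, other pseudocounts, scalings, filters and thresholds, a replicate block and leaving out each library were alternatives. The script was tested on simulated data. Replicates of a group differed beyond sampling noise. Same-numbered libraries did not deviate together.

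The members and lists were chosen with earlier results of these data known. All 49 members are named, with values in every library for those called in both comparisons, for up to 8 with the largest changes in each, and PCNA. From each other list up to 4 genes with the smallest adjusted p in each comparison are named, and E2F1. Promoter windows are from RefSeq (GRCh38.p14), matched by symbol. Exon lengths and overlaps are from GENCODE v29. PECAM1 was not analysed here, and 1 gene that the rule names among the other replication genes is counted in its list but not reported here.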

Additional observations from a re-analysis of the deposited data

Results flagged for a closer look

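For 9 replication genes the effect of TEX10 knockdown differed from that of RELA knockdown in a fit of all 10 libraries (limma, adjusted p under 0.01), and each is given as the log2 fold change after TEX10 knockdown minus that after RELA knockdown. RRM2, the small ribonucleotide reductase subunit, had -0.41 (SE 0.06, limma adjusted p = 5.68e-05), with -0.15 after TEX10 knockdown and 0.25 after RELA knockdown. GINS2 had 1.07 (SE 0.10, limma adjusted p = 7.8e-08), with 0.10 and -0.97. These 2 calls held under every alternative tried.

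CDT1 had -0.33 (limma adjusted p = 0.00112) and CDC6, its partner in loading the helicase, had 0.34 (limma adjusted p = 0.00493). LIG1 had -0.34 (limma adjusted p = 0.00121) and FEN1, which acts before it on Okazaki fragments, had 0.36 (limma adjusted p = 0.00417). PRIM1 had -0.32 (limma adjusted p = 0.00517), POLD2 -0.26 (limma adjusted p = 0.00259) and TK1 -0.24 (limma adjusted p = 0.00834). POLD2 passed in neither knockdown alone, with -0.12 and 0.14. Each of these 7 calls was lost with no filter on low values (limma adjusted p of 0.0181 to 0.0698) and without at least 1 library. CDT1, LIG1 and POLD2 lost it without the first shNC2 or the second p65_sh library, where they had -0.29 to -0.19 and limma adjusted p of 0.0124 to 0.0286. CDC6 also lost it without the second TEX10_sh or the first p65_sh library, with limma adjusted p of up to 0.0485 among these. FEN1 lost it without any 1 library of the RELA experiment or the first or the third TEX10_sh library (0.32 to 0.37, limma adjusted p of 0.0105 to 0.0195) and under DESeq2 (adjusted p = 0.0193), PRIM1 in 6 such fits (-0.32 to -0.26, limma adjusted p of up to 0.0416) and TK1 in 8 (-0.28 to -0.15, limma adjusted p of up to 0.0906). No group held 4 libraries, so no single library was tested for lying apart.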

How the results depend on the processing

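Log2 fold changes of the 49 genes were recomputed under 14 alternatives after TEX10 knockdown, 12 after RELA knockdown and 18 for the difference. Direction and side of the threshold were unchanged in 611 of 686, 542 of 588 and 782 of 882 values. With 2 or 3 libraries a group calls can move, and for the difference those of FEN1 (0.36) and CDC6 (0.34) did. A threshold of 0.05 gave 5 members higher after TEX10 knockdown and 8 after RELA knockdown, and for the difference 10 lower and 5 higher. Over all genes 27.3% and 20% were higher at that threshold, and for the difference 13.7% were lower and 16.5% higher. With a fold change of at least 1.5 in addition, TEX10 knockdown had 0 members lower and 0 higher, RELA knockdown 1 and 0, and the difference 0 and 1. Of the other replication genes, 0 were lower and 1 higher with TEX10 knockdown, and 0 and 0 with RELA knockdown. With no filter on low values, 9 members were lower after TEX10 knockdown, 1 lower and 1 higher for the difference, and 3 other replication genes lower after RELA knockdown, where DESeq2 gave 4. More genes were tested with no filter, and for the difference 2.98% of these were lower and 4.51% higher. The median of the members was -0.078 with library totals after TEX10 knockdown, and after RELA knockdown -0.041 with library totals and -0.053 with edgeR (TMM or RLE) and DESeq2. With library totals the difference was -0.029 for POLD1 and -0.031 for TYMS, of opposite sign. The cause of these moves was not tested.

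The replicate numbers showed no clear pairing of the libraries: the correlations of deviations for the same number were 0.022, 0.038 and -0.021 in the TEX10 experiment and 0.027 in the RELA experiment. Values near 0 cannot show that libraries were not handled in pairs. With 2 libraries a group, the RELA experiment gives only 1 such value, with its sign turned for unlike numbers. With the replicate number as a block, RELA knockdown had 8 members higher and 12 lower, TEX10 knockdown 15 lower and 3 higher, and the difference 8 lower and 3 higher. Among all genes, the blocked RELA fit called 17.6% higher and 18.7% lower, against 14.4% and 15.8% unblocked. So calls rose with the block beyond the replication genes too. The blocked TEX10 fit called 20.8% of all genes higher and 18.2% lower, and that of the difference 11.6% and 8.36%.

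Leaving out 1 library of the TEX10 experiment at a time, members lower after TEX10 knockdown ranged from 10 to 23 and higher from 2 to 8. Other replication genes lower ranged from 8 to 18 and higher from 4 to 7. Over all genes these fits called 15.5% to 18.4% lower and 17.6% to 21.1% higher. For the difference, members lower ranged from 4 to 12 and higher from 2 to 5, against 6.82% to 8.58% and 9.73% to 11.5% of all genes. In the RELA experiment leaving out 1 library leaves 1 in a group, so such counts are not given. The medians of the members ranged from -0.112 to 0.006 after TEX10 knockdown and from -0.058 to -0.008 after RELA knockdown. Members with both shNC2 libraries above all shNC1 libraries ranged from 33 to 42. Values that changed sign were small. After TEX10 knockdown CDC6 ranged from -0.094 to 0.064, RFC1 from -0.042 to 0.006 and CHAF1B from -0.031 to 0.094. After RELA knockdown ORC4 ranged from -0.027 to 0.061, CDT1 from -0.043 to 0.069, MCM8 from -0.156 to 0.023, RPA3 from -0.101 to 0.002, LIG1 from -0.023 to 0.099, RB1 from -0.114 to 0.004 and TFDP2 from -0.097 to 0.007. The difference ranged from -0.072 to 0.085 for POLD1, -0.008 to 0.11 for PCNA and -0.032 to 0.044 for TYMS.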
